A study of Mus musculus with 6 samples.

Results

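The genes described here encode the proteins of the cytosolic ribosome in the mouse host of a human liver tumor xenograft. They were taken from the mouse count table as protein-coding genes whose symbol starts with Rpl or Rps and a digit, or is Rpsa, Rplp0, Rplp1 or Rplp2, without the ribosomal S6 kinases. Of 93 genes with such names, 89 had a total of at least 10 counts over all libraries, among 18018 mouse genes that passed the same minimum and 56884 in the table. The 4 genes below the minimum were Rpl10l, Rpl39l, Rpl27rt and Rps18-ps6, which had 0 to 6 counts in total. By name, 53 of the 89 belong to the large (60S) and 36 to the small (40S) ribosomal subunit. The names also cover genes that are no ordinary subunits, such as Rps19bp1, which encodes a binding partner of RPS19, the retrogene Rps23rg1 and the retrocopies Rpl35rt, Rps27rt, Rpl9-ps6 and Rpl10-ps3.

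Each cytosolic ribosome carries a single copy of nearly every one of these proteins, and cells make them in matched amounts. Their mRNAs are abundant, short and long-lived, and most begin with a run of pyrimidines, the 5′ terminal oligopyrimidine (TOP) motif, through which the mTOR pathway and its effector LARP1 control translation. Because mRNA levels of ribosomal protein genes follow growth and cell type, they are a usual measure of how much of a cell's transcription serves ribosome production.

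RNA was sequenced from liver samples of athymic male mice of the BALB/c (nu/nu) strain. The age of the mice is given as 6 weeks, which by the timing in the paper's methods was the age at implantation. All mice carried implanted human hepatocellular carcinoma (HCC) cells. They received, 1 week after implantation and through the tail vein, adeno-associated virus 8 (AAV8) with either siControl, a control siRNA, or siAATF, an siRNA against mouse Aatf, a nucleolar factor of ribosome production and apoptosis. Samples were collected 3 weeks later, and there were 3 libraries per group. The siRNA was driven by the TBG promoter, which is active in hepatocytes, and athymic mice lack mature T cells. The labels do not say that replicates are separate mice, so p-values measure the spread between these libraries, which may be technical.

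The mouse part of the libraries differed between the groups in depth and origin. The siControl libraries held 213022 to 913584 mouse gene counts, 0.778% to 1.93% of all their gene counts, and the siAATF libraries held 11835898 to 42563694, 97.9% to 99.0%. Of the markers checked against the liver label, 9 of 10 hepatocyte markers were higher in siAATF. The macrophage markers (8 of 8), the fibroblast markers (9 of 10) and the endothelial markers (7 of 8) were lower, all with an adjusted p under 0.05. None of these markers was at 0 counts in every library of a group. The summed CPM (counts scaled to a common library total, here after TMM normalization) of the hepatocyte markers spanned 7511 to 16783 in siControl and 45967 to 155693 in siAATF, and those of the fibroblast markers 8716 to 12784 and 343 to 536. The macrophage markers summed to 1445 to 4688 CPM and 104 to 175 CPM, and the endothelial markers to 704 to 937 CPM and 88.6 to 233 CPM. The part of these cell mixes in the results below was not tested. Genes of the mitochondrial genome took 4.04% to 10.5% of the mouse counts in siControl and 20.8% to 56.1% in siAATF, most in siAATF replicate 2. Aatf, the siRNA target, was not lower in siAATF after TMM normalization, with 2.42 to 12.8 CPM in siControl, 13.3 to 22.0 CPM in siAATF and an adjusted p of 0.152, and its log2 fold change of 0.93 reversed to -0.92 under library size alone. The group names below therefore mean the libraries labelled siControl and labelled siAATF. The treatment, the origin of the counts and the mix of mouse cells cannot be told apart in the comparisons below, and in bulk RNA fewer cells of a type and less RNA per cell cannot be told apart either.

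The first question was how much of the host's RNA came from ribosomal protein genes. The 89 genes together took 5.47%, 6.10% and 6.53% of the mouse counts in siControl replicates 1 to 3. In siAATF replicates 1 to 3 they took 2.70%, 1.11% and 1.98%. Every siControl library lay above every siAATF library. The mean share was 6.03% ± 0.533 in siControl against 1.93% ± 0.797 in siAATF (SD, n = 3 each), so that the share was 3.12 times as large in siControl. Without the genes of the mitochondrial genome the shares were 6.51% ± 0.708 and 2.89% ± 0.649 (SD, n = 3 each), still without overlap. Leaving out the hepatocyte markers and the major urinary protein genes as well gave 6.65% ± 0.669 and 3.20% ± 0.804 (SD, n = 3 each). A sum over chosen genes was given no p-value.

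**Figure D1:**
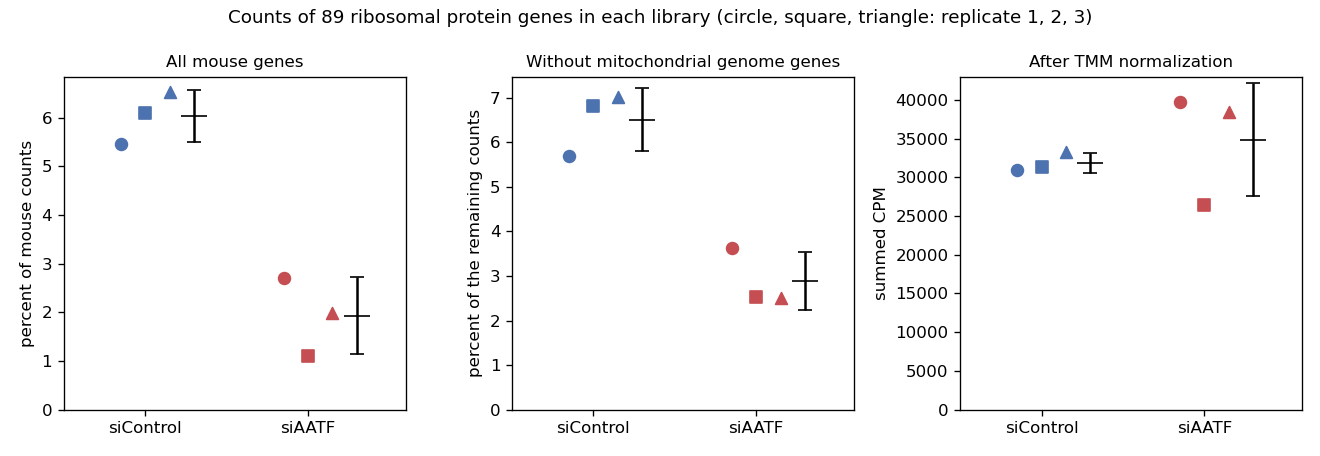
Summed counts of the 89 ribosomal protein genes in each library as percent of mouse counts (left), as percent of mouse counts without mitochondrial genome genes (middle) and as TMM-normalized CPM (right), with circles, squares and triangles for replicates 1, 2 and 3 and black bars for the mean and SD of each group. The groups are apart in the left and middle plots and overlap in the right one, where siAATF replicate 2 is the lowest of the 6 libraries.

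TMM normalization sets the libraries to a common level for most genes, and its factors were 1.77 to 1.97 in siControl and 0.419 to 0.681 in siAATF. On that scale the summed CPM of the 89 genes was 30887, 31369 and 33272 in siControl and 39670, 26473 and 38431 in siAATF. The groups overlapped, with means of 31842 ± 1261 and 34858 ± 7288 (SD, n = 3 each). Whether ribosomal protein RNA was lower in siAATF thus depended on the scale, since it was lower per mouse count and not lower per TMM-normalized count. As CPM of human and mouse gene counts together, the sum was 877 ± 350 in siControl and 19060 ± 7960 in siAATF (SD, n = 3 each). The siControl libraries varied by 1.19 times in ribosomal protein counts per mouse count and by 2.35 times in ribosomal protein counts per human count.

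The balance of the subunits was close in all libraries. Counts of 60S genes were 1.32, 1.16 and 1.24 times those of 40S genes in siControl and 1.19, 1.12 and 1.28 times in siAATF. These ratios overlapped between the groups, with means of 1.24 ± 0.0783 and 1.20 ± 0.0788 (SD, n = 3 each).

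The second question was which single genes differed. All 18018 mouse genes were tested together with edgeR's quasi-likelihood test, with p-values adjusted by Benjamini-Hochberg over all of them. Of the 89 ribosomal protein genes, 5 were higher in siAATF with an adjusted p under 0.05 and 0 were lower, against 32.0% of all tested genes, 17.6% higher and 14.4% lower. One of the 5, Rps23rg1, had no siControl count and passed the minimum of 10 counts only through siAATF, and 4 of the 80 genes with a mean of at least 50 counts were called. At an unadjusted p under 0.05, 10 were higher and 0 lower, against 24.4% and 17.8% of all tested genes. DESeq2, the authors' program, called 9 higher and 4 lower, among them all 5 of the edgeR calls, against 16.8% and 16.3% of all tested genes, where genes to which DESeq2 gave no adjusted p counted as not called. By the study's criteria (|log2 fold change| of 2 or more, unadjusted p under 0.05), 3 were higher and 0 lower, against 26.7% of all tested genes. They were Rps27l and, both without a siControl count, Rps23rg1 and Rpl24. The median log2 fold change of the 89 genes was 0.15 and that of all tested genes 0.50, a difference of -0.35. Without siAATF replicate 2 the median of the 89 was 0.35 and the difference -0.12. Without siControl replicate 1, siControl replicate 2, siAATF replicate 1 or siAATF replicate 3 the median was 0.098, 0.057, 0.015 and 0.063, and without any one library other than siAATF replicate 2 the difference was -0.43 to -0.49. The medians of the genes with 60S names (0.15) and 40S names (0.16) were alike, with 1 of 53 and 4 of 36 called. These 4 include Rps19bp1, whose product is no part of the ribosome, and the retrogene Rps23rg1, so the counts are no comparison of the subunits.

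Scaling by library size alone moved the median of all tested genes to -1.30 and that of the ribosomal protein genes to -1.64, a difference of -0.33. On that scale 55 of the 89 were lower and 0 higher, against 40.4% and 4.15% of all tested genes. The share of all calls that were higher fell from 55.0% to 9.31%. Of the 80 genes with a mean of at least 50 counts, 45 had a log2 fold change above 0 after TMM normalization, and 1 of them, Rps27l, also under library size alone. Directions below refer to the TMM scale unless another is named.

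**Figure D2:**
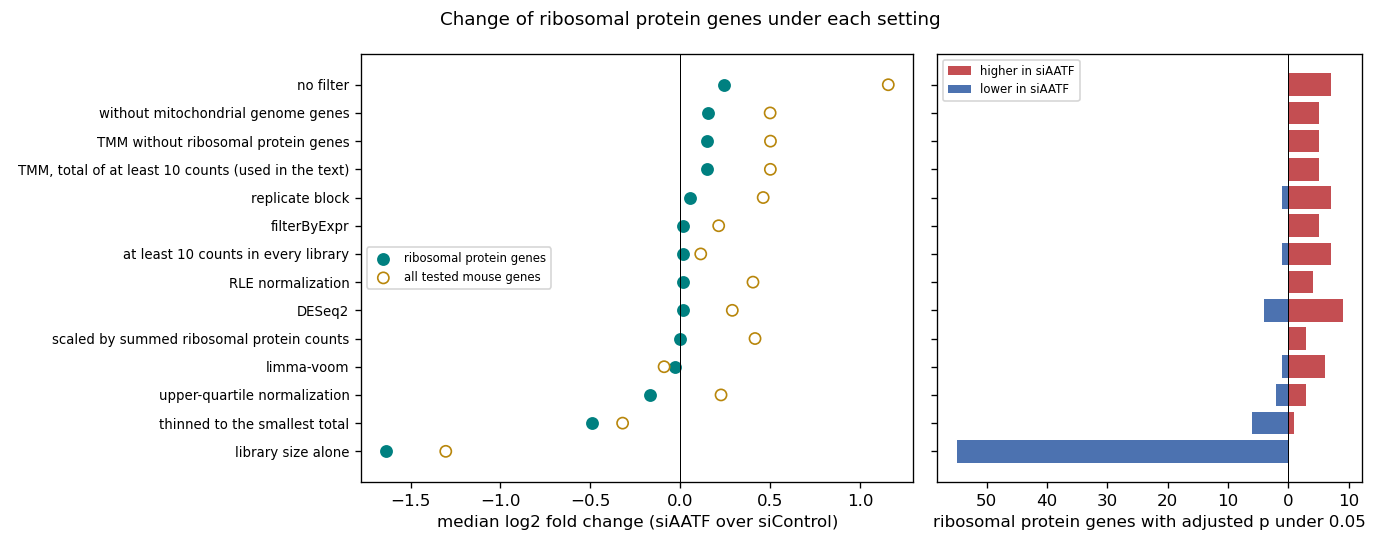
Median log2 fold change of the ribosomal protein genes (filled) and of all tested mouse genes (open) under the settings named on the axis, which leave out no library (left), and the number of ribosomal protein genes with an adjusted p under 0.05, higher to the right and lower to the left of 0 (right). Under library size alone the median of the ribosomal protein genes is -1.64 with 55 genes lower, and under the other settings drawn it lies between -0.49 and 0.24.

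Of the 80 genes with a mean of at least 50 counts, 72 had a log2 fold change within 1 of 0 and 50 within 0.5. Their standard errors were 0.36 to 0.70. The normalized counts of both groups overlapped for 53 of the 80, while 19 lay higher and 8 lower in siAATF without overlap. Among all tested genes, 34.5% lay higher and 18.1% lower without overlap. The spread within the groups was unequal. The median coefficient of variation over the 80 genes was 9.56% in siControl and 33.2% in siAATF, and it was larger in siAATF for 72 of them. For all genes with as many counts the medians were 30.4% and 33.2%. In 53 of the 80 genes siAATF replicate 2, the library with the largest share of mitochondrial counts, was the lowest of the 6 libraries, and in 4 it was the highest.

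**Figure D3:**
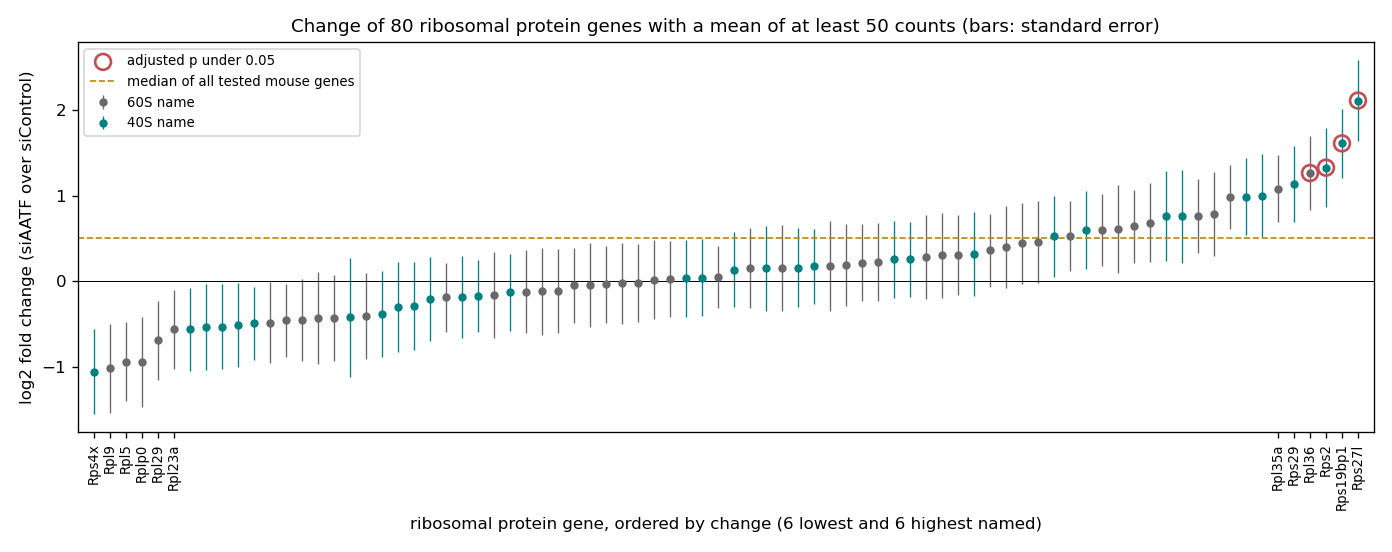
Log2 fold change (siAATF over siControl) of the 80 ribosomal protein genes with a mean of at least 50 counts, in order of size, with standard errors as bars, 60S names in grey, 40S names in teal and rings around genes with an adjusted p under 0.05. Most points lie between -1 and 1, and the 4 ringed genes at the right end are Rpl36, Rps2, Rps19bp1 and Rps27l.

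The highest fitted change among these 80 genes was that of Rps27l (ENSMUSG00000036781, GRCm39 chromosome 9, 66853368 to 66856796), a paralog of Rps27 that is known as a target of p53. Its CPM was 63.4, 48.3 and 56.9 in the siControl libraries, in the order of their numbers, against 246, 127 and 358 in siAATF. All siAATF libraries lay above all siControl libraries. The log2 fold change was 2.11 (standard error 0.47, adjusted p = 0.00449). It was called in 18 of 19 alternatives and lost under library size alone, where the log2 fold change was 0.34 (adjusted p = 0.612).

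Rps2 (GRCm39 chromosome 17, 24939037 to 24940903) encodes a 40S protein near the mRNA entry channel. Its CPM was 275, 319 and 239 in siControl and 849, 672 and 564 in siAATF, without overlap (log2 fold change 1.33, standard error 0.46, adjusted p = 0.0449). Rpl36 (GRCm39 chromosome 17, 56920416 to 56921243), a 60S gene, had 217, 201 and 182 CPM in siControl and 385, 503 and 550 CPM in siAATF. Its groups did not overlap either (log2 fold change 1.26, standard error 0.43, adjusted p = 0.0419). Both calls were near the threshold and were kept in 10 (Rps2) and 11 (Rpl36) of 19 alternatives. That of Rps2 was lost without siAATF replicate 1 (adjusted p = 0.0868), that of Rpl36 without siAATF replicate 3 (0.0728), and both without any one of the siControl libraries (0.0743 to 0.212). Under library size alone both directions reversed, to -0.46 and -0.58.

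Rps19bp1 (GRCm39 chromosome 15, 80144816 to 80148516), whose product binds RPS19 and is no part of the ribosome, had 25, 3 and 23 siControl counts. Its CPM was 20.1, 7.25 and 12.8 in siControl and 35.4, 44.0 and 50.6 in siAATF, without overlap. The log2 fold change was 1.61 (standard error 0.40, adjusted p = 0.00888), with an adjusted p of 0.0692 without siControl replicate 3 and a reversed value of -0.20 under library size alone. Rps23rg1, a retrogene of Rps23 named here after its values were seen, was the fifth call. No siControl library held a count of it, and siAATF held 123, 9 and 38. A gene that passes the minimum only through the group where it is high had to differ, so its call was read as a description, and under the stricter filters and thinning it was not tested. With 3 counts allowed over the siControl group it was at least 3.76-fold higher (adjusted p = 0.0231, and 0.0620, 0.104 and 0.0651 without siControl replicate 1, siControl replicate 3 and siAATF replicate 1).

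The number called moved with single libraries. It was 1 without siControl replicate 3, where Rps27l alone was called, 2 without siControl replicate 1 and 3 without siControl replicate 2, all higher. Of all tested genes, 9.08%, 13.6% and 12.6% were called higher in these fits. It was 10, all higher, without siAATF replicate 2, against 20.5% of all tested genes, and 3 higher and 2 lower (Rpl9 and Rps4x) without siAATF replicate 1, against 19.5% and 14.2%.

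Below the threshold, the genes next in order at the upper end were Rps29 and Rpl35a. Rps29, a small 40S protein that binds zinc, had 259, 225 and 233 CPM in siControl and 600, 401 and 567 CPM in siAATF (log2 fold change 1.13, adjusted p = 0.0696, and 0.00491 in DESeq2). Rpl35a, a 60S gene, had 62.6, 50.7 and 55.2 CPM in siControl and 143, 79.1 and 135 CPM in siAATF (log2 fold change 1.08, adjusted p = 0.0524, and 0.0303 in DESeq2). In neither did the groups overlap.

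**Figure D4:**
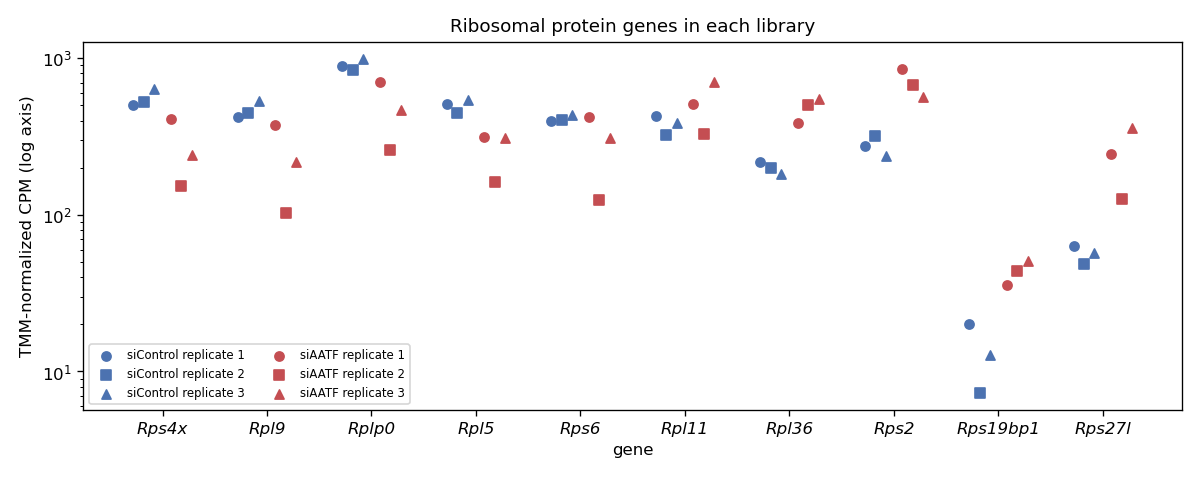
TMM-normalized CPM (log axis) of 10 ribosomal protein genes in each library, blue for siControl and red for siAATF, with circles, squares and triangles for replicates 1, 2 and 3. Rps27l, Rps19bp1, Rps2 and Rpl36 lie higher in all siAATF libraries, Rps4x, Rpl9, Rplp0 and Rpl5 lie lower, and Rps6 and Rpl11 overlap, all on the TMM scale.

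At the lower end, 0 genes passed the test, and the 4 lowest had groups that did not overlap. Rps4x (GRCm39 chromosome X, 101228547 to 101233000), the X-linked form of a 40S protein, had 503, 529 and 635 CPM in siControl and 409, 152 and 243 CPM in siAATF. Its log2 fold change was -1.05 (standard error 0.49, adjusted p = 0.126, and 0.0145 in DESeq2). Rpl9, a 60S protein, had 422, 447 and 533 CPM in siControl and 374, 103 and 217 CPM in siAATF (log2 fold change -1.02, standard error 0.52, adjusted p = 0.158, and 0.0364 in DESeq2). In both, siAATF replicate 2 was the lowest library, and without it the values were -0.72 and -0.61, while without siAATF replicate 1 they were -1.47 (adjusted p = 0.0497) and -1.53 (0.0456).

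Rpl5 and Rpl11 carry the 5S rRNA into the 60S subunit, and outside the ribosome they bind MDM2 and thereby stabilize p53. Rpl5 had 513, 445 and 542 CPM in siControl and 312, 161 and 310 CPM in siAATF (log2 fold change -0.94, standard error 0.46, adjusted p = 0.143, and 0.00901 in DESeq2). Rpl11 had 426, 324 and 386 CPM in siControl and 507, 330 and 707 CPM in siAATF, with overlap (log2 fold change 0.44, adjusted p = 0.489). Of Rpl5, Rpl11, Mdm2 and Trp53, 0 of 4 passed the test, against 32.0% of all tested genes, and Mdm2 came nearest with a log2 fold change of -0.90 (adjusted p = 0.0524, and 0.0225 in DESeq2). Reads of Rpl5 are uncertain where its exons coincide with those of Dipk1a on the other strand, which cover 46.6% of its exon bases.

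The stalk of the 60S subunit, which recruits translation factors, is built of the proteins of Rplp0, Rplp1 and Rplp2. Rplp0 had 895, 843 and 987 CPM in siControl and 701, 259 and 465 CPM in siAATF (log2 fold change -0.94, adjusted p = 0.196, and 0.0250 in DESeq2). Rplp1 lay the other way, with 605, 725 and 776 CPM in siControl and 1508, 784 and 924 CPM in siAATF (log2 fold change 0.61, adjusted p = 0.381). Neither pair of groups overlapped. Rplp2 had 341, 457 and 592 CPM in siControl and 551, 236 and 247 CPM in siAATF, with overlap (log2 fold change -0.43, adjusted p = 0.533).

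Rps6, whose product is phosphorylated by the S6 kinases downstream of mTOR, had 400, 403 and 434 CPM in siControl and 422, 125 and 308 CPM in siAATF (log2 fold change -0.53, adjusted p = 0.432). Rps19, the gene most often mutated in Diamond-Blackfan anemia, had 351, 372 and 402 CPM in siControl and 338, 304 and 353 CPM in siAATF (log2 fold change -0.18, adjusted p = 0.781). Rpsa, a 40S protein also known as the laminin receptor, had 1054, 949 and 1249 CPM in siControl and 1841, 2213 and 1460 CPM in siAATF, without overlap (log2 fold change 0.76, adjusted p = 0.306). Unlike most of the genes, Rpsa was highest in siAATF replicate 2.

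Levels of different genes were compared as RPKM, which is CPM per kilobase of gene length. Among the 5 highest in siControl were Rplp1 (1407 RPKM), Rps12 (1313 RPKM), Rps15 (1239 RPKM) and Rpl41 (1072 RPKM), each a mean of 3 libraries. Among those in siAATF were Rplp1 (2148 RPKM), Rps15 (1541 RPKM), Rps29 (1341 RPKM) and Rpl36 (1252 RPKM). Rplp1 was thus at rank 1 and Rps15 at rank 3 in both groups. Rpl36 moved from rank 22 to rank 5 and Rps4x from rank 15 to rank 57 of 89. The mean RPKM of the 80 genes spanned 134-fold in siControl and 120-fold in siAATF. The length used here is that of all annotated exon bases of a gene, such as 5395 for Rps15a and 3706 for Rps20. It can exceed the length of the mRNA, so ranks and span depend on the annotation too. The part of the annotation in them was not tested. Spearman's rho of RPKM over the 80 genes was 0.924 to 0.938 among the siControl libraries, 0.903 to 0.916 among the siAATF libraries and 0.726 to 0.891 between the groups. These rho are a description over genes that share libraries and lengths, and genes are not replicates.

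Some ribosomal proteins have a second, differently used gene, and the share of this paralog was taken as its part of the RPKM of the pair. The Rps27l share of Rps27 and Rps27l was 13.6%, 9.00% and 12.0% in siControl and 29.6%, 26.2% and 42.0% in siAATF, without overlap. Rps27 itself had 321, 389 and 333 CPM in siControl and 466, 285 and 394 CPM in siAATF (log2 fold change 0.14, adjusted p = 0.843). Within the pair, Rps27l passed the test and Rps27 did not. The Rps4l share of Rps4x and Rps4l was 1.15%, 2.92% and 1.39% in siControl and 6.33%, 6.52% and 6.73% in siAATF, on 9 to 22 siControl counts of Rps4l (log2 fold change of Rps4l 1.00, adjusted p = 0.137). The deposited table lists Rps4l as a pseudogene, and GENCODE M39 as protein-coding.

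**Figure D5:**
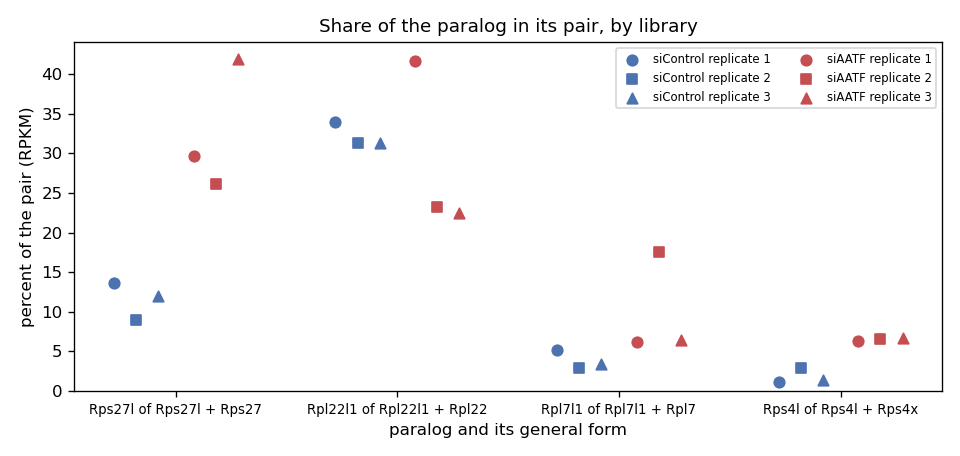
Part of the pair's RPKM taken by the paralog in each library for 4 pairs, blue for siControl and red for siAATF, with circles, squares and triangles for replicates 1, 2 and 3. The shares of Rps27l, Rpl7l1 and Rps4l lie higher in every siAATF library than in any siControl library, and those of Rpl22l1 overlap.

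The Rpl7l1 share of Rpl7 and Rpl7l1 was 5.19%, 2.93% and 3.45% in siControl and 6.16%, 17.6% and 6.39% in siAATF, where siAATF replicate 2 combined a low Rpl7 (182 CPM) with 105 CPM of Rpl7l1 (log2 fold change of Rpl7l1 0.98, adjusted p = 0.0618, and 0.0479 in DESeq2). Rpl22l1 made up 34.0%, 31.3% and 31.4% of its pair with Rpl22 in siControl and 41.6%, 23.3% and 22.5% in siAATF, with overlap (log2 fold change of Rpl22l1 -0.04, adjusted p = 0.960). The paralogs that are known from muscle or testis stayed near 0. Rpl3l had 0 or 1 counts in siControl and 1 to 6 in siAATF, Rpl10l had 0 counts in all libraries and Rpl39l 1 count in 1 library. Rpl36al, a form of Rpl36a without introns, had 0 to 3 counts in siControl and 3 to 22 in siAATF, or 0.106% ± 0.0222 (SD, n = 3) of its pair in siAATF. Another gene model, Gm49383, shares 24.5% of the exon bases of Rpl36al on the same strand. The part of this overlap in the low counts was not tested.

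Reads that fit several places, and reads that fit both species, were dropped by the authors. In siControl the counts of the 89 genes equalled 0.0478% to 0.112% of the human counts. Whether some human reads were assigned to mouse genes was not tested. Of the 89 genes, 86 had some 50-base window that also occurs elsewhere in the mouse genome, with a median of 37.6% of their windows, and 33 had at least 50%. Of the called genes, Rpl36 had 97.5% of such windows, Rps2 63.8%, Rps23rg1 55.0%, Rps27l 16.7% and Rps19bp1 0%, and Rps4x at the lower end had 84.65%. RPKM was taken per whole gene length, copied windows included. In the pairs above, Rps27 had 71.4% of such windows against 16.7% in Rps27l, and Rps4x 84.65% against 10.9% in Rps4l. Rpl7 had 58.8% against 11.9% in Rpl7l1, while Rpl22 had 3.95% against 60.8% in Rpl22l1. The paralog shares are therefore not exact levels, and the part of copied windows in them was not tested. The 310 genes of these names that are not annotated as protein-coding, mostly processed pseudogenes, received 0.976% to 2.31% as many counts as the 89. The share of copied windows and the log2 fold change were nearly unrelated over the 80 genes (Spearman's rho 0.03, a description over genes that share libraries).

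Some genes whose products every ribosome holds were nearly without counts. These were named after their values were seen. Rpl24 (GRCm39 chromosome 16, 55786638 to 55791798) had no count in any siControl library, against 34, 13 and 23 in siAATF (adjusted p = 0.0555), and Rps10 (GRCm39 chromosome 17, 27849392 to 27855643) had 1, 1 and 0 siControl counts against 24, 11 and 30 in siAATF. Other gene models of the table share exon bases with them on the same strand, Gm28037 with 71.5% of the bases of Rpl24 and Gm49804 with 38.8% of those of Rps10, of which 54.3% are shared in all. The other genes with more than 50% of their exon bases shared were Rpl13a (54.9%), Rpl30 (55.0%) and Rpl23a (55.4%), the last 2 of them with a gene on the other strand. The median of this share over the 89 genes was 0, with 20 genes at more than 0. A read that lies in exons of several genes can be left out of gene counts, so the low values were not read as expression levels, and the part of the overlaps in them was not tested.

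Fau, which encodes a 40S protein fused to a ubiquitin-like protein, and Rack1, a scaffold of the 40S head, are ribosomal proteins under other names. Fau had 471, 662 and 612 CPM in siControl and 615, 487 and 434 CPM in siAATF (log2 fold change -0.18, adjusted p = 0.792). Rack1 had 678, 515 and 698 CPM in siControl and 582, 255 and 495 CPM in siAATF (log2 fold change -0.51, adjusted p = 0.446). Neither passed the test.

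The genes of the mitochondrial ribosome are also encoded in the nucleus. Of 78 tested, 40 were higher with an adjusted p under 0.05 and 0 lower, against 17.6% and 14.4% of all tested genes, with a median log2 fold change of 1.27. The count moved with single libraries, to 9 without siControl replicate 3, 24 without siControl replicate 2 and 63 without siAATF replicate 2. In these fits 9.08%, 12.6% and 20.5% of all tested genes were called higher. Of the 40, 8 were called without each library in turn. After thinning to the smallest total, 5 of 77 were higher, against 12.6% of all tested genes. The summed CPM of the 78 genes was 1676, 1254 and 1372 in siControl and 4013, 2469 and 4224 in siAATF, without overlap. Among them Mrps21 had the highest fitted change (2.34, adjusted p = 0.000756), and Mrpl3 the lowest (-0.59, adjusted p = 0.427). Per mouse count the scale matters here too. Under library size alone the median was -0.48, with 6 of 78 lower and 0 higher, against 40.4% and 4.15% of all tested genes.

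Of 17 other mRNAs of the TOP class, elongation factors and partners of translation among them, 0 were higher and 1 lower, against 17.6% and 14.4% of all tested genes, with a median of -0.19. The lower one was Hnrnpa1, an RNA-binding protein (log2 fold change -2.20, adjusted p = 0.00155). Eef1a1, the most abundant of them with 3532 CPM in siControl and 2253 CPM in siAATF, had a log2 fold change of -0.65 (adjusted p = 0.497). Of 15 initiation factors, 4 were higher and 0 lower, against the same 17.6% and 14.4%. The higher ones were Eif5 (2.11, adjusted p = 0.00545), Eif5b (1.61, adjusted p = 0.0431), Eif2s2 (1.48, adjusted p = 0.0386) and Eif4g1 (1.11, adjusted p = 0.0479). The call of Eif5 was kept without any one library. Those of Eif5b, Eif2s2 and Eif4g1 were lost without any one of the siControl libraries (0.0723 to 0.184), and also without siAATF replicate 2 for Eif5b (0.0921) and Eif2s2 (0.0605) and without siAATF replicate 1 (0.0618) or 3 (0.0611) for Eif4g1. With scaling by the summed ribosomal protein counts their adjusted p was 0.0661, 0.0613 and 0.0737.

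Among 12 regulators of TOP mRNAs, 4 were higher and 1 lower, against 17.6% and 14.4% of all tested genes. The higher ones were Eif4ebp2 (1.96, adjusted p = 0.00249) and Larp1 (1.42, adjusted p = 0.0226), which hold back translation of these mRNAs, the S6 kinase gene Rps6kb1 (1.77, adjusted p = 0.00676) and Larp4 (1.46, adjusted p = 0.0118). The lower one was Myc, an activator of ribosomal protein gene transcription, with 24.9 CPM in siControl and 2.49 CPM in siAATF (log2 fold change -3.17, adjusted p = 0.00163). Larp1 lost its call without siControl replicate 1, 2 or 3 (adjusted p = 0.0639, 0.0617 and 0.129), Larp4 without siControl replicate 2 or 3 (0.0517 and 0.0585) and Rps6kb1 without siControl replicate 3 (0.0614), while Eif4ebp2 and Myc were called without any one library. Under library size alone 0 genes of these 3 lists were higher, and 14 of the 17, 9 of the 15 and 4 of the 12 were lower, against 4.15% and 40.4% of all tested genes. Of the dedicated chaperones Grwd1, Bccip, Heatr3, Ltv1 and Tsr2, which escort new ribosomal proteins, 0 of 5 passed the test, with a median of 0.79.

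To see what the transcript starts share, RefSeq starts (GRCm38.p6) were matched by symbol for 65 of the 89 genes. A run of at least 8 pyrimidines within 15 bases of the start was present in 28 of the 65 (43.1%) and in 15.1% of 10813 tested protein-coding genes. The following windows of 30 bases are shown for Rpl7a and Rpl27a, which hold the longest runs, for Rpl35a, Rps27l, Rps2 and Rplp0 from both ends of the order of change, and for Rps6 and Rps27, described above, in lower case with the longest pyrimidine run in capitals.
Rpl7a, chr2:26910792-26910821, plus strand: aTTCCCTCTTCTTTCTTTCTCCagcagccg
Rpl27a, chr7:109519180-109519209, plus strand: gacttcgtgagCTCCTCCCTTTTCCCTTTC
Rpl35a, chr16:33056467-33056496, plus strand: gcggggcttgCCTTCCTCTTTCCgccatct
Rps6, chr4:86857353-86857382, minus strand: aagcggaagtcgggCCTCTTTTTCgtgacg
Rps27, chr3:90213634-90213663, minus strand: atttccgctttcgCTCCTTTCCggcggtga
Rps27l, chr9:66946071-66946100, plus strand: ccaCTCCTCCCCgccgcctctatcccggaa
Rps2, chr17:24720048-24720077, plus strand: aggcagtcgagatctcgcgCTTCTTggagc
Rplp0, chr5:115559452-115559481, plus strand: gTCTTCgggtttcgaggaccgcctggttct
The run spans or touches the annotated start in Rpl7a, Rpl27a, Rpl35a, Rps6 and Rps27, ends before it in Rps27l, and stays under 8 bases in Rps2 and Rplp0. A RefSeq start can lie some bases off the start used in liver, so a short run in this window does not show that the mRNA lacks the motif.

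The genes with and without such a run had similar medians. Among those with at least 50 counts on average, 26 genes with a run had a median log2 fold change of 0.08 and 33 without one had 0.05, with 1 and 2 called higher, against 17.6% of all tested genes. Other motifs were searched on both strands from 250 bases before to 50 after the start. For the run and the motifs, a gene with several RefSeq starts counted where any of them held it. CCGGAAG, the core bound by ETS factors such as GABPA, was found in 38.5% of the 65 and 18.4% of the 10813 genes. AAGATGGC, the core of the YY1 motif, was found in 9.23% and 4.87%, the E-box CACGTG in 9.23% and 11.2%, and TATAAA in 10.8% and 9.75%. The palindrome with CGCG at its centre that is known as the motif of BANP was found in 9.23% and 1.09%. Around the starts with windows shown above, Rps27l, Rps2, Rps6 and Rpl27a hold CCGGAAG and Rps27 and Rpl35a hold AAGATGGC. Rps2 and Rplp0 hold TATAAA there, and Rps6 holds the BANP motif.

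Gene length moved with the direction of the difference. Of 19 genes under 700 bases, 15 had a log2 fold change above 0, with a median of 0.32. From 700 to under 1400 bases it was 22 of 43 with a median of 0.02, and from 1400 bases on 8 of 18 with a median of -0.15. Over the 80 genes Spearman's rho between length and log2 fold change was -0.31, and over the 9466 tested genes with as many counts it was -0.12, both descriptions over genes that share libraries. In the same bands all genes had medians of 1.58, 0.99 and 0.60. RNA quality values per library were not used here, and the part of length in the differences was not tested.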

How the data were processed

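Counts of mouse and human genes from 6 libraries, 3 siControl and 3 siAATF, were analysed as the authors deposited them. Per the paper's methods, the authors trimmed the reads of SMART-Seq libraries with Cutadapt (minimum read length 20 bases) and aligned them with STAR 2.7.11 to the human and mouse (GRCm39) genomes joined into one. Reads that fitted several places or both species were dropped. The rest were counted with featureCounts (version 2.0.1 in the submitters' notes) on the basic mouse annotation of GENCODE M33. The deposited counts are raw, with gene positions and lengths beside them. Whether strand was used in counting is not given in the sources used here. The submitters' notes list DESeq2 1.42.0 with R 4.3.2.

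Genes were named from GENCODE M39, where 56323 of 56884 mouse identifiers were found. The test was edgeR 4.0.16 (quasi-likelihood, TMM, total of at least 10 counts, group as the only term, R 4.3.3), with Benjamini-Hochberg adjustment over all 18018 tested mouse genes and a threshold of 0.05. Standard errors were derived from the log2 fold change and its F statistic. Alternatives were DESeq2 1.42.0, limma-voom (limma 3.58.1), other scalings and filters, thinning, the replicate block and leaving out each library. The fit was tested on simulated data. RPKM used the deposited gene lengths. Copies of 50-base windows were searched in GRCm39, and start windows came from RefSeq (GRCm38.p6). A gene at 0 can still reach 3 counts, which per library is 0.104 to 0.605 TMM-normalized CPM in siAATF and 1.67 to 7.25 in siControl, for counting error only. The ribosomal protein genes and all gene lists were chosen with earlier results of these data known.

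Genes named with values were the stalk genes, Rpsa, Rps6, Rpl5, Rpl11, Rps19, 8 paralog pairs, the 5 highest by RPKM in each group, the 6 lowest and the 6 highest log2 fold changes among genes with a mean of at least 50 counts, Fau, Rack1 and Aatf. Some genes under this rule are not reported here. Genes of the other lists were named where they passed the test or stood at an end of their list.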

Additional observations from a re-analysis of the deposited data

How the results depend on the processing

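The number of called ribosomal protein genes, 5 higher and 0 lower, depended on the scaling, the test and the filter. Called in all, higher and lower were 13, 9 and 4 with DESeq2, 55, 0 and 55 under library size alone, 8, 7 and 1 with at least 10 counts in every library, and 8, 7 and 1 with the replicate block. They were 5, 3 and 2 with upper-quartile normalization, 7, 6 and 1 with limma-voom, 7, 1 and 6 after thinning to the smallest total, and 3, 3 and 0 with scaling by the summed ribosomal protein counts, an alternative chosen after seeing the data. Of all tested genes the same fits called 33.1%, 44.5%, 49.1%, 37.6%, 30.4%, 30.9%, 31.1% and 29.5%, in this order. Leaving out 1 library gave 1 to 10 called in all, 1 to 10 higher and 0 to 2 lower, against 18.8% to 35.7% of all tested genes. In place of the 3 genes past the study's criteria, Rps23rg1 alone passed with limma-voom and with DESeq2. Rps27l alone passed where each library had to hold 10 counts, and 0 genes passed with filterByExpr. After thinning the 1 gene that passed was Rpl29, which is none of the 3 and was lower there. Under library size alone 22 genes passed, with none of the 3 among them. Of all tested genes, 26.7% passed these criteria in the fit used in the text, 22.9% to 30.1% in these alternatives other than library size alone, and 34.5% there.
The median log2 fold change of 0.15 became -1.64 under library size alone and -0.49 after thinning. It was -0.17 to 0.24 under the other alternatives with all libraries, and 0.015 (without siAATF replicate 1) to 0.35 (without siAATF replicate 2) with 1 library left out. Relative to all genes, -0.35 became -0.91 without a filter, -0.097 where each library had to hold 10 counts, -0.20 with filterByExpr, -0.17 after thinning, -0.12 without siAATF replicate 2 and 0.063 with limma-voom, where the median of all genes was -0.09. Fewer genes and fewer counts enter the stricter filters and thinning. The causes of the other changes were not tested. As CPM of human and mouse counts together, the siControl share of 6.03% of mouse counts became 877, and the siAATF share of 1.93% became 2.89% without mitochondrial genome genes. Library size alone moved the median of all tested genes from 0.50 to -1.30. With this shift of all genes, 44 of the 45 genes above 0 with a mean of at least 50 counts were reversed. Among them were Rpl10 (-1.62), Rpl22 (-1.74), Rpl36a (-1.41), Rps27 (-1.63), Rpl36 (-0.58), Rps2 (-0.46) and Rps19bp1 (-0.20).
The replicate numbers were not found to pair the libraries. Deviations of same-numbered libraries correlated by 0.11, 0.15 and -0.02, and siControl replicate 1 and siAATF replicate 3 by 0.15. The block added the calls of Rpl35a, Rpl7l1 and Rpl9. Depth limits siControl most, where 6 of the 89 genes had at most 3 counts in every library.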
